A study of Rattus norvegicus with 20 samples.

Results

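The microRNA biogenesis and silencing machinery was followed here through 10 genes chosen by symbol, namely Drosha, Dgcr8, Xpo5, Dicer1, Ago1, Ago2, Ago3, Tnrc6a, Tnrc6b and Tnrc6c. All 10 were found among the 31038 gene symbols of the deposited matrix of raw read counts, and all 10 passed the filter on low counts, a minimum of 5 reads in 10 or more libraries, which left 16605 genes to test. The samples were medial prefrontal cortex (mPFC) of 20 male Sprague-Dawley rats, 10 given LSD and 10 given saline, with 1 library of poly(A)-selected RNA from each rat. LSD, a hallucinogen that activates serotonin receptors, was injected into the peritoneum on alternate days at a dose of 0.16 mg/kg, over 90 days in all. According to the labels, rats of both groups were 6 to 8 weeks old at the start and were killed 3 weeks after treatment ended, whereas the study's methods give a longer interval and an older age for both groups. Tissue outside the mPFC was not analysed here.

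MicroRNAs are short RNAs that silence messenger RNAs by base pairing. A long primary transcript is cut in the nucleus by the Microprocessor, made of the nuclease Drosha and its RNA-binding partner Dgcr8, and the resulting hairpin is exported by Exportin-5 (Xpo5). In the cytoplasm Dicer1 cuts the hairpin to a short duplex, 1 strand is loaded into an Argonaute protein (Ago1, Ago2, Ago3 or Ago4), and the scaffold proteins Tnrc6a, Tnrc6b and Tnrc6c then recruit the enzymes that shorten the poly(A) tail and stop translation. In neurons this pathway is known for the local control of protein synthesis near synapses.

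The product of the pathway is shown by the mature strands of microRNAs whose host rows had reads in these libraries, with the seed (bases 2 to 8, the part that pairs with a target) in capitals. They were taken from RefSeq on the GRCr8 build, and miR-132 and miR-212 are shown because they share a seed and lie near each other on chromosome 10.
miR-132-3p: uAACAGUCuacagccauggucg
miR-212-3p: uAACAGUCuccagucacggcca
miR-138-5p: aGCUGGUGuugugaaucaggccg
miR-22-3p: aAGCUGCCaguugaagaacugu
The hairpin of Mir132 (plus strand, chr10:60522033-60522133) shows what the machinery cuts, with the 5′ and the 3′ mature arms in capitals.
Mir132 hairpin: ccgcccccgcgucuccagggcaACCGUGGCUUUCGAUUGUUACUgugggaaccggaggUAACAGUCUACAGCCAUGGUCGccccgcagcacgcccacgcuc

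In these rats, Dicer1 and Ago3 rose after LSD, and the other 8 genes did not pass the test. Dicer1 was 16.6% higher in LSD-treated rats (log2 fold change 0.22 ± 0.051, SE) and Ago3 30.1% higher (0.38 ± 0.12), both tested in edgeR (quasi-likelihood F test, p-values adjusted by Benjamini and Hochberg over all 16605 genes). Tarbp2, which encodes an RNA-binding partner of Dicer1, fell by 0.24 on the log2 scale. No member was called lower by edgeR, DESeq2 or limma voom. At an unadjusted p below 0.05 by edgeR, 5 members were higher and 0 lower, beside 30.8% of all genes in either direction. Among all genes tested 6.48% were called higher and 8.54% lower (15.0% in either direction) at an adjusted p below 0.05, so 2 of 10 members are set against that background without a test of the list. All 10 members had a positive log2 fold change, against 50.4% of all genes, and their median was 0.09 against 0.0022 for all genes. This direction was not kept in every fit. The members' median span was 85853 bases against 24514 for all genes, and with centred span offsets 5 of 10 members were positive, with a median of 0.00059. With uncentred offsets 6 were positive, and with the striatal covariate 7. The count was 6 without saline replicate 9 (median 0.072), 7 without saline replicate 2 and 9 without LSD replicate 8. All 10 stayed positive in each other fit that left out 1 rat.

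Levels are given as normalised RPM, the read count divided by the TMM-scaled size of the library, as mean ± SD over 10 rats of each group. They are not divided by transcript length, so they were compared between groups and not between genes. Because whole tissue was sequenced, fewer cells of a type and less RNA per cell cannot be told apart. The libraries held 16346629 to 25552681 reads on genes in the LSD group and 11098076 to 24201351 in the saline group.

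The library of saline replicate 9 had the lowest mean correlation with the other rats (0.986). Saline replicate 4 came next (0.988), and the highest was 0.993 (saline replicate 7). Saline replicate 9 also held the lowest value of its group for 9 of 10 members, Drosha being the exception. Without it, Dicer1 (log2 fold change 0.20) and Ago3 (0.30) were still called, and no other member was called. Its summed RPM of 6 striatal marker genes was 575.5, in a saline range of 230.4 to 609.5. These markers had negative log2 fold changes in 6 of 6 cases (median -0.71, adjusted p from 0.0671 to 0.113 by edgeR), and the LSD range was 200.8 to 434.7. Of the 6, 0 were called by edgeR, DESeq2 or limma voom, and 6 had an unadjusted p below 0.05. Oligodendrocyte markers were likewise negative in 6 of 6 cases (median -0.35), with 0 called by edgeR, 1 by DESeq2 and 3 at an unadjusted p below 0.05. The striatal marker level was used as a covariate in 1 alternative, and the part of oligodendrocyte markers in the results was not tested. Of 6 markers of inhibitory neurons, 2 rose (Gad2 and Vip) and 2 fell (Slc32a1 and Sst), named here after their values were seen. Markers of excitatory cortical neurons were present in every rat, at 3456 to 4631 summed RPM with LSD and 3552 to 5336 with saline.

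**Figure D1:**
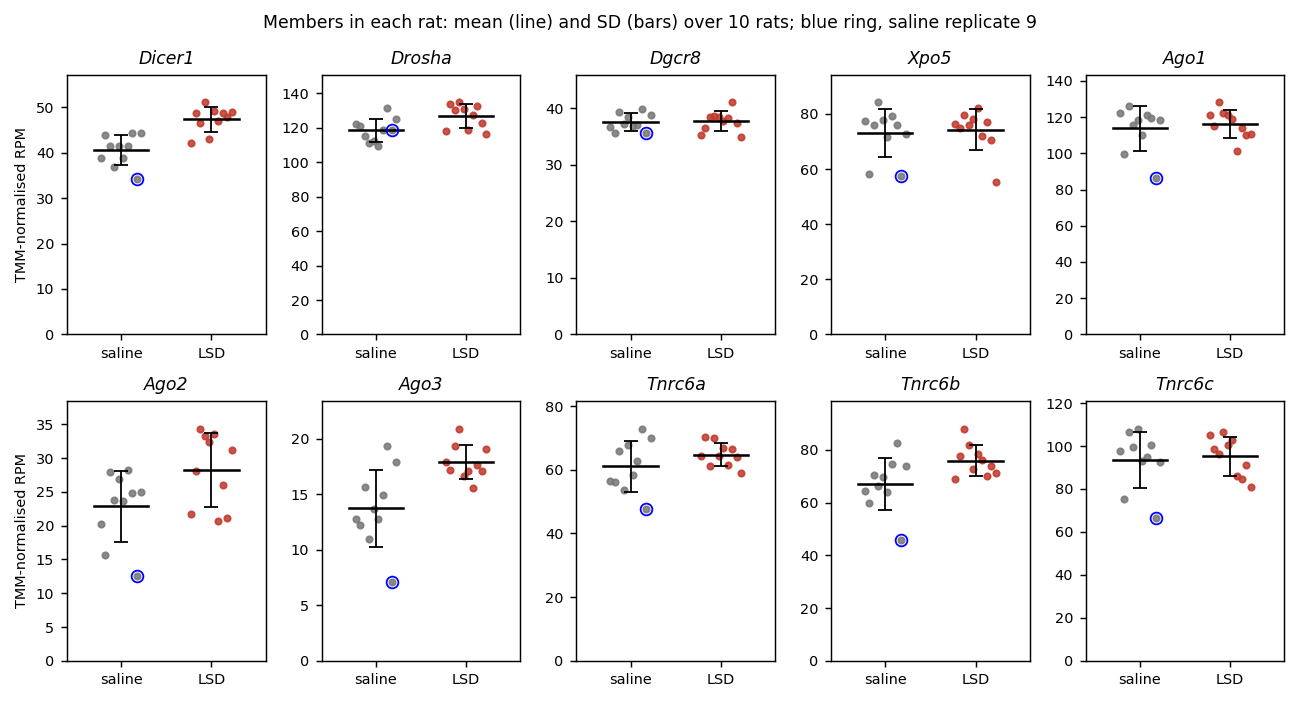
Normalised RPM of the 10 members in each of 20 rats, 1 panel per gene with its own vertical axis from 0, 10 saline (grey) and 10 LSD (red) points per panel, the group mean ± SD and a blue ring on saline replicate 9. Dicer1 shows 8 of 10 LSD points above every saline point, whereas the groups overlap widely for Dgcr8 and Xpo5.

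Neither gene of the Microprocessor passed the test. Drosha, the nuclease of the Microprocessor, ran from 116.1 to 134.7 RPM with LSD (median 128.8) and from 109.6 to 131.3 with saline (median 118.7). Of the 10 LSD-treated rats 8 lay above the saline median and 3 above every saline rat, so the groups overlapped. The means were 126.6 ± 6.98 with LSD and 118.5 ± 6.76 with saline, a log2 fold change of 0.09 ± 0.043 (95% interval 0.0053 to 0.18) that did not pass adjustment (adjusted p = 0.138, edgeR). Of 14 other settings it passed in 1, with libraries scaled by total counts (0.14, adjusted p = 0.0479), where 9.06% of all genes were called higher and the median of all genes moved to 0.05. With centred span offsets it was 0.0049, and with the striatal covariate 0.12 (adjusted p = 0.0869).

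Dgcr8, the partner that recognises the hairpin stem, had 37.7 ± 1.78 RPM with LSD and 37.6 ± 1.52 with saline. Its LSD values ran from 35.0 to 41.0 and its saline values from 35.6 to 39.9. The ranges lay on top of each other, and the log2 fold change was 0.01 ± 0.039 (95% interval -0.08 to 0.09, adjusted p = 0.944, edgeR). Its sign turned in some fits. The log2 ratio of Drosha to Dgcr8 was 1.75 ± 0.059 with LSD and 1.66 ± 0.086 with saline, with 9 of 10 LSD-treated rats above the saline median.

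Xpo5, the export receptor, had 74.2 ± 7.43 RPM with LSD and 73.1 ± 8.79 with saline. Its LSD values ran from 55.4 (replicate 10) to 82.2 and its saline values from 57.5 to 84.2, and 5 of 10 LSD-treated rats lay above the saline median. The log2 fold change was 0.02 ± 0.072 (95% interval -0.13 to 0.17, adjusted p = 0.869, edgeR), with a sign that also turned in some fits. Ran, the GTPase that powers this export, differed by -0.02 on the log2 scale (adjusted p = 0.835), and its sign turned under total-count scaling.

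Dicer1 gave the clearest separation of the 10 genes, in that the number of LSD-treated rats above every saline rat was highest for it. Its level ran from 42.2 to 51.0 RPM with LSD (median 48.3) and from 34.2 to 44.3 with saline (median 41.4). All 10 LSD-treated rats lay above the saline median, 8 lay above every saline rat, and 7 saline-treated rats lay below every LSD-treated rat. The means were 47.3 ± 2.79 and 40.6 ± 3.35, and the 95% interval of the log2 fold change was 0.12 to 0.33 (adjusted p = 0.00912, edgeR). With the striatal covariate it was 0.22 (adjusted p = 0.0237). The call held in 14 of 14 other settings, where the log2 fold change lay between 0.16 and 0.27 and the adjusted p reached at most 0.0419, and in 20 of 20 fits that each left out 1 rat.

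Neither of the double-stranded RNA-binding partners of Dicer1 was called higher. Tarbp2, which helps Dicer1 position its substrate and hand it to Argonaute, ran from 24.3 to 30.5 RPM with LSD (median 26.9) and from 27.4 to 35.3 with saline (median 32.1), and 7 of 10 LSD-treated rats lay below every saline rat. The difference was -0.24 ± 0.055 on the log2 scale (adjusted p = 0.00864, edgeR), and the call held in 11 of 14 other settings and 20 of 20 fits without 1 rat. It was lost when each rat's trend with gene span, the distance from a gene's start to its end, was removed (-0.15, adjusted p = 0.0505), but held when the same offsets were centred on each rat's median (-0.17, adjusted p = 0.0309). With the replicate number as a block it was lost under both kinds of offset (adjusted p = 0.0695 and 0.0516). With the striatal covariate it was -0.25 (adjusted p = 0.0192). Prkra, the other partner, differed by -0.10 (adjusted p = 0.167). The log2 ratio of Dicer1 to Tarbp2, chosen after their values were seen and given with no test, was 0.82 ± 0.11 with LSD, from 0.61 to 0.96, and 0.35 ± 0.23 with saline, from -0.01 to 0.68. In 9 of 10 LSD-treated rats the ratio exceeded that of every saline-treated rat, and 8 saline-treated rats lay below every LSD-treated rat. The ratio was taken from counts without span offsets, and the spans of Dicer1 and Tarbp2 are 64955 and 5117 bases. With centred span offsets the log2 fold changes were 0.16 for Dicer1 and -0.17 for Tarbp2.

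**Figure D2:**
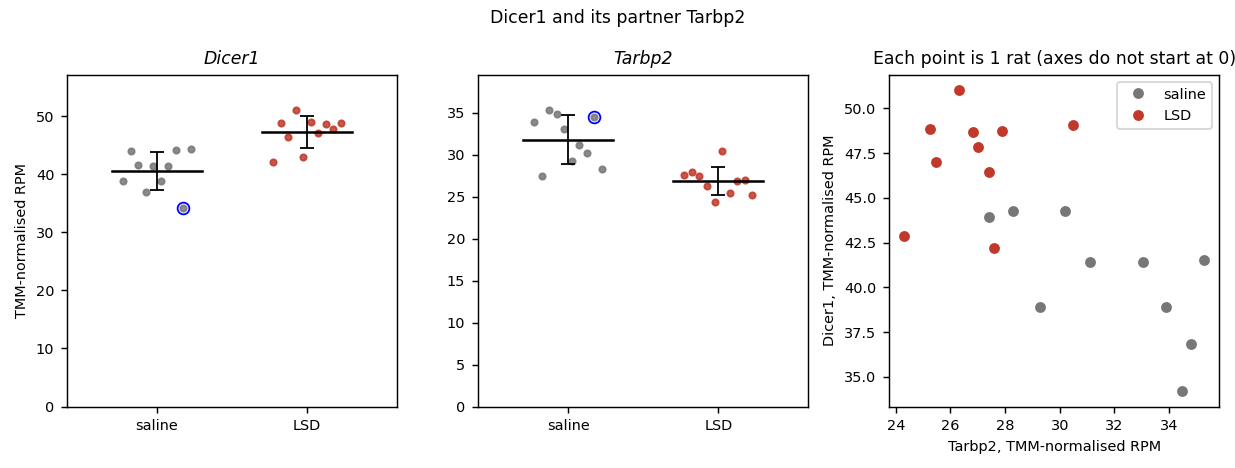
Normalised RPM of Dicer1 (left) and Tarbp2 (middle) by group with mean ± SD and a blue ring on saline replicate 9, and Dicer1 against Tarbp2 (right, axes not from 0), 1 point per rat, 10 LSD and 10 saline. LSD-treated rats lie toward higher Dicer1 and lower Tarbp2, with mean log2 ratios of 0.82 and 0.35 in the LSD and saline groups.

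Of the Argonautes, Ago3 rose. Its level ran from 15.6 to 20.9 RPM with LSD (median 17.5) and from 7.10 to 19.3 with saline (median 13.3). All 10 LSD-treated rats lay above the saline median, 2 lay above every saline rat, and 7 saline-treated rats lay below every LSD-treated rat. Ago3 had 17.9 ± 1.54 RPM with LSD and 13.7 ± 3.48 with saline, a coefficient of variation of 8.61% against 25.3%. Part of the saline spread came from saline replicate 9, without which the saline values were 14.5 ± 2.74 RPM. The 95% interval of its log2 fold change was 0.13 to 0.62 (adjusted p = 0.0341, edgeR). The gene had between 141 and 484 reads per library. The call was less stable than that of Dicer1. It held in 11 of 14 other settings, and failed with offsets for gene span (0.32, adjusted p = 0.0593, 3.99% of all genes called higher), with the same offsets centred on each rat's median (0.31, adjusted p = 0.0628, 3.38%) and with the striatal marker level as a covariate (0.34, adjusted p = 0.0849, 5.43%). It held in 12 of 20 fits without 1 rat, and was lost without LSD replicates 3, 4, 8 or 10 or saline replicates 1, 4, 5 or 6, with adjusted p up to 0.0660.

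Ago2, the Argonaute that can itself cut a target, had 28.3 ± 5.50 RPM with LSD and 22.9 ± 5.24 with saline. Its LSD values ran from 20.7 to 34.4 (median 29.7) and its saline values from 12.5 to 28.3 (median 24.3). The groups overlapped, with 5 of 10 LSD-treated rats above every saline rat. The log2 fold change of 0.31 ± 0.13 (95% interval 0.03 to 0.59) did not pass adjustment (adjusted p = 0.118, edgeR). It passed with the replicate number as a block (0.32, adjusted p = 0.0416, 8.16% of all genes called higher), although the numbers were not taken as pairs of rats. With the summed striatal markers as a covariate, an alternative chosen after seeing the data, it was 0.16 (adjusted p = 0.445).

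Ago1 had 116.3 ± 7.64 RPM with LSD and 113.7 ± 12.2 with saline. Its LSD range of 101.5 to 128.1 lay largely within its saline range of 86.3 to 126.0, and its log2 fold change was 0.03 ± 0.060 (95% interval -0.09 to 0.16, adjusted p = 0.757, edgeR), of unstable sign. Ago4, which was not among the 10 members, differed by 0.16 on the log2 scale (adjusted p = 0.220). In the GRCr8 annotation Ago3, Ago1 and Ago4 follow each other on chromosome 5. The log2 ratio of Ago3 to Ago1, also chosen after the values were seen, was -2.70 ± 0.10 with LSD and -3.09 ± 0.29 with saline. The ratio of Ago3 to Ago2, was -0.64 ± 0.25 and -0.74 ± 0.26, and these groups overlapped.

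The 3 Tnrc6 scaffolds had positive log2 fold changes and none was called. Tnrc6b ran from 69.0 to 88.0 RPM with LSD (median 75.1) and from 45.9 to 82.5 with saline (median 67.8). All 10 LSD-treated rats lay above the saline median, but 1 lay above every saline rat. The means were 75.9 ± 5.83 and 67.1 ± 9.87, a log2 fold change of 0.18 ± 0.075 (95% interval 0.02 to 0.33, adjusted p = 0.107, edgeR). It passed when scaled by total counts (0.22, adjusted p = 0.0474) and when saline replicate 8 was left out (0.22, adjusted p = 0.0445), and was 0.07 with centred span offsets and 0.14 with the striatal covariate (adjusted p = 0.238).

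Tnrc6a had 64.8 ± 3.69 RPM with LSD and 61.2 ± 8.00 with saline, with 9 of 10 LSD-treated rats above the saline median and 0 above every saline rat (log2 fold change 0.08 ± 0.065, adjusted p = 0.402, edgeR). Tnrc6c had 95.2 ± 8.99 and 93.4 ± 13.1 RPM (0.03 ± 0.077, 95% interval -0.13 to 0.19, adjusted p = 0.841). The signs of both turned in some fits. The log2 ratio of Tnrc6b to Tnrc6c was -0.32 ± 0.14 with LSD and -0.48 ± 0.14 with saline, and 4 of 10 LSD-treated rats exceeded every saline-treated rat.

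**Figure D3:**
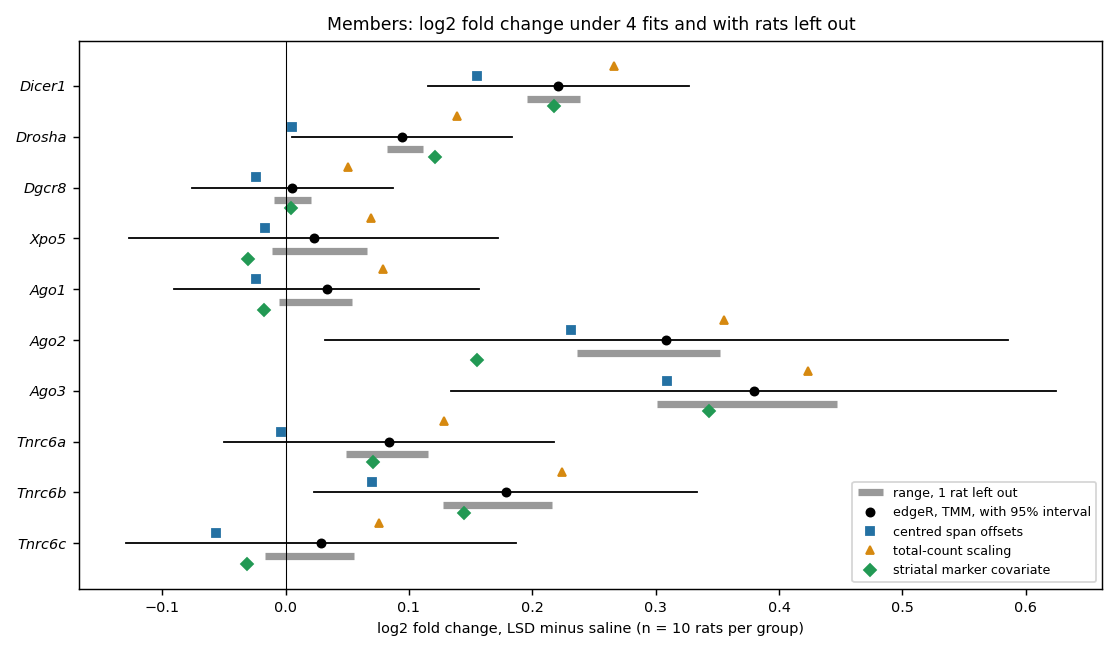
Log2 fold change, LSD minus saline, of the 10 members by edgeR with 95% intervals (black), under 3 other fits (coloured marks) and its range with 1 rat left out (grey bars). All 10 black points lie above 0, 5 of 10 points with centred span offsets lie below it, the intervals of 5 members exclude 0, and of these 5 Dicer1 and Ago3 were called after adjustment.

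The 10 genes also varied together from rat to rat. After each group's mean was removed, Spearman's rho over 20 rats was above 0 in 43 of 45 pairs of members, with a median of 0.49 (Pearson's r above 0 in 44 pairs, median 0.57). The highest was between Ago1 and Ago2 (0.73) and the lowest between Dicer1 and Xpo5 (-0.12). Without saline replicate 9 the median over 19 rats was 0.45, and 41 pairs were above 0. These are descriptions, since all values share the libraries and their scaling. The mean rho of each of 16595 other genes to the 10 members had a median of -0.02 and a 5th to 95th percentile range of -0.40 to 0.41. The genes most like the members were Huwe1 (0.66), Sptbn1 (0.66), Sestd1 (0.64), Dync1h1 (0.64) and RGD1307100 (0.63). Their spans were 130091, 175256, 97165, 65743 and 216622 bases, in that order. The median span was 85853 bases for the members and 24514 for all genes tested. The part of span in these correlations was not tested. Huwe1 encodes a ubiquitin ligase, Sptbn1 a spectrin of the membrane skeleton and Dync1h1 the heavy chain of the dynein motor.

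**Figure D4:**
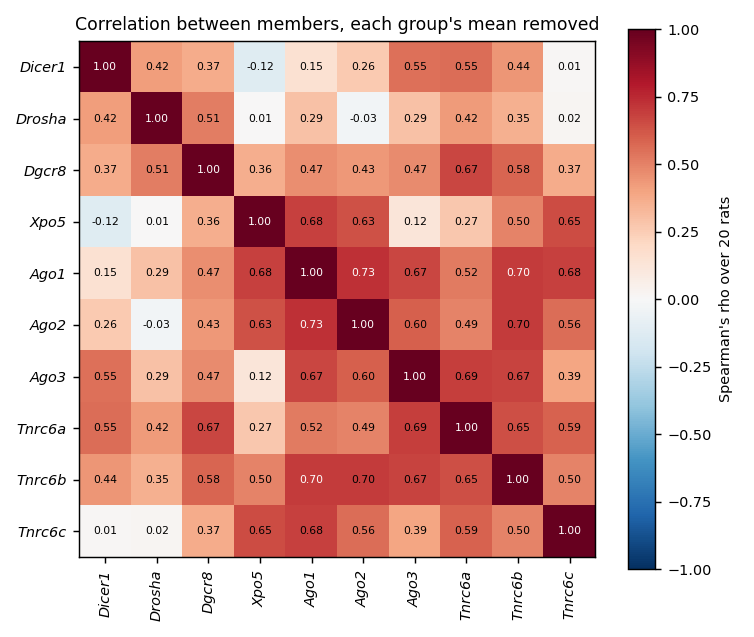
Spearman's rho between the 10 members over 20 rats after removal of each group's mean. In 43 of 45 pairs rho is above 0, and pairs with Dicer1 include the lowest value, -0.12 with Xpo5.

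Other genes of the pathway were taken from 5 lists that hold 88 genes, of which 87 were in the matrix and 83 were tested. Of these 83, 9 rose and 2 fell by edgeR, beside 6.48% and 8.54% of all genes, and the median log2 fold change was 0.04. With span offsets 5 rose, beside 3.99% of all genes, and with centred span offsets 5, beside 3.38% of all genes. Among 16 partners of processing and export, Tarbp2 fell, as given above. Among 20 tested genes of Argonaute loading and the silencing complex, 2 rose and 1 fell. Fmr1, which encodes the RNA-binding protein FMRP, rose by 0.34 ± 0.094 (adjusted p = 0.0215), with 26.2 ± 3.17 RPM against 20.7 ± 3.91 in saline-treated rats and all 10 LSD-treated rats above the saline median, and Tsn, which encodes translin, by 0.23 (adjusted p = 0.0352). Fkbp4, a co-chaperone of the Hsp90 machinery that loads Argonautes, fell by 0.27 ± 0.048 (adjusted p = 0.00408). Its level ran from 164.2 to 197.4 RPM with LSD and from 182.9 to 233.7 with saline, and 8 of 10 LSD-treated rats lay below every saline rat.

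Among 13 tested genes of tailing, trimming and turnover, 3 rose and 0 fell by edgeR, beside 6.48% and 8.54% of all genes. By DESeq2 0 were called lower, beside 10.3% of all genes. At an unadjusted p below 0.05 by edgeR, 3 were higher and 1 lower. Zcchc6, also known as Tut7, a terminal uridylyltransferase that tails microRNA precursors, rose by 0.28 ± 0.060 (adjusted p = 0.00697, edgeR), from 45.1 ± 4.61 RPM with saline to 54.8 ± 4.59 with LSD. Papd4, a non-canonical poly(A) polymerase, rose by 0.26 (adjusted p = 0.0299), and the nuclear exonuclease Xrn2 by 0.19 (adjusted p = 0.0408).

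Downstream of Tnrc6, 2 of 17 genes of the deadenylase complexes rose, namely Cnot4 (0.19, adjusted p = 0.0354) and Cnot1, the scaffold of the CCR4-NOT complex (0.18, adjusted p = 0.0483). None was called lower by edgeR or DESeq2. Among all genes edgeR called 6.48% higher and 8.54% lower. At an unadjusted p below 0.05 by edgeR, 6 of the 17 were higher and 1 lower, beside 30.8% of all genes in either direction. Of 17 tested genes of translational repression and decay, Xrn1, the cytoplasmic exonuclease that degrades decapped RNA, rose by 0.31 ± 0.071 (adjusted p = 0.00852), and its LSD values of 21.0 to 26.3 RPM lay above every saline value (14.9 to 22.8) in 8 of 10 rats. None of these 17 fell by edgeR and 1 fell by DESeq2, beside 8.54% and 10.3% of all genes. At an unadjusted p below 0.05 by edgeR, 3 were higher and 1 lower. Fkbp4, Fmr1, Zcchc6 and Xrn1 passed the test in all 14 other settings and all 20 fits without 1 rat. The calls of the other 5 named here were less stable. Cnot1 passed in 6 of 14 other settings and 4 of 20 fits without 1 rat, Xrn2 in 8 and 9, Cnot4 in 9 and 12, Papd4 in 10 and 15, and Tsn in 13 and 12. With span offsets Cnot4 was at 0.12 (adjusted p = 0.130) and Cnot1 at 0.11 (adjusted p = 0.189). Xrn2 was at 0.13 (adjusted p = 0.160) and Papd4 at 0.22 (adjusted p = 0.0711) there. In this fit 0 of the 17 deadenylase genes were called higher, beside 3.99% of all genes. Tsn was lost with the striatal covariate (0.21, adjusted p = 0.0805), as were Cnot4 (0.19, adjusted p = 0.0614) and Cnot1 (0.14, adjusted p = 0.147).

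**Figure D5:**
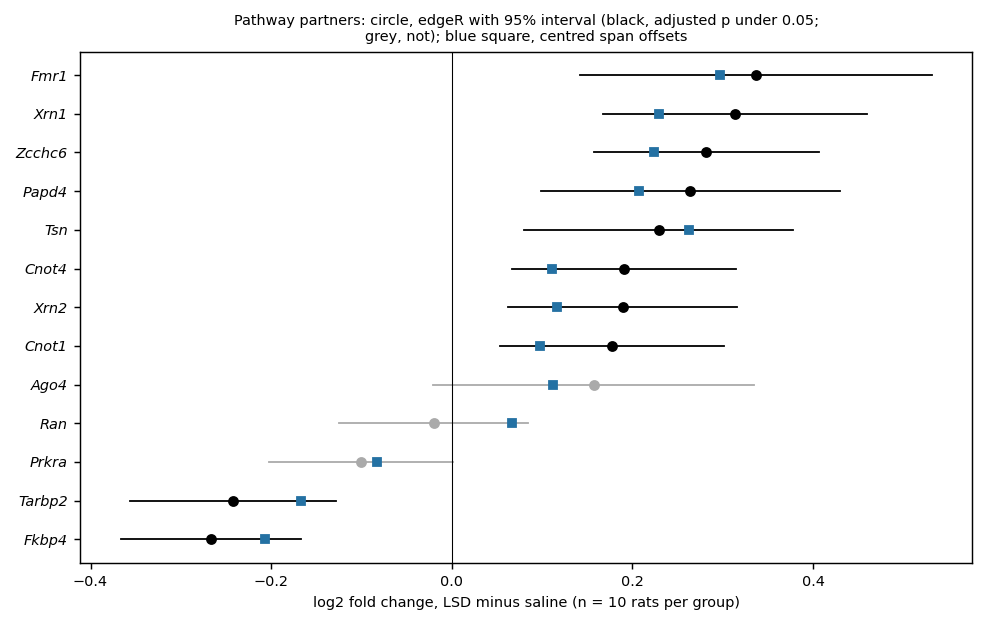
Log2 fold change, LSD minus saline, of the named partner genes by edgeR with 95% intervals (black where called, grey where not) and with centred span offsets (blue squares). Of the genes drawn, 8 were called higher and 2 lower, the latter being Tarbp2 and Fkbp4.

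The rows of microRNA genes carried few reads, since poly(A) libraries measure precursors or their host transcripts and not the mature strands shown above. Of 450 such rows 184 had a read and 21 passed the filter. By edgeR 0 were called, with 2 at an unadjusted p below 0.05, by DESeq2 0, and by limma voom 1. Of all genes tested, edgeR called 15.0% in either direction, and 30.8% had an unadjusted p below 0.05. DESeq2 called 8.07% of all genes higher and 10.3% lower, and limma voom 6.67% and 7.96%. The lowest adjusted p by edgeR was 0.0812, for Mir3593 (log2 fold change 0.49 ± 0.19, 5 to 28 reads per library), and the other of the 2 was Mir124-2 (0.73, adjusted p = 0.0978, 1 to 12 reads). Mir132 had 20 to 55 reads per library and differed by -0.16 on the log2 scale (adjusted p = 0.649). Mir212, which shares its seed, had 15 to 53 reads and differed by 0.31 (adjusted p = 0.279). The 21 rows had between 0 and 162 reads per library, and no limit of detection was computed for them.

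The 250 bases before the start site in RefSeq's promoter table were read for Dicer1, Ago3 and Tarbp2, because these genes moved at adjacent steps of the pathway. The motifs searched on both strands were CCAAT, the GC box GGGCGG, the Ets motif CCGGAAG, the E-box CACGTG, the cAMP response element TGACGTCA, the palindromic NRF1 site and the TATA box TATAAA, and capitals mark the matches. Each sequence is written 5′ to 3′ on the gene's strand, from the GRCr8 build. The start in that table need not be the outermost end of a gene's annotated span. The windows of Dicer1 and Tarbp2 lie outside the span, and the last 9 bases of the Ago3 window, with part of its Ets motif, lie inside it.
Dicer1 (minus strand, chr6:129457253-129457502): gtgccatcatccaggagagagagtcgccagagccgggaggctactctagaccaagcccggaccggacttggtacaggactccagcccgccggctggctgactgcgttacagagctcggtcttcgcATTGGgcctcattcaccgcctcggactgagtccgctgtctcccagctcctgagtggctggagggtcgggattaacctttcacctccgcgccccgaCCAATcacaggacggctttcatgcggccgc
Ago3 (minus strand, chr5:143998738-143998987): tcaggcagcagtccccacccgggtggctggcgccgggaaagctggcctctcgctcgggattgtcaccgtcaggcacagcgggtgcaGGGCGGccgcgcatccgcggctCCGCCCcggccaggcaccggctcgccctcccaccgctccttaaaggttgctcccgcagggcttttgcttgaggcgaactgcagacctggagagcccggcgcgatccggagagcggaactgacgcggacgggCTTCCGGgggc
Tarbp2 (plus strand, chr7:135527460-135527709): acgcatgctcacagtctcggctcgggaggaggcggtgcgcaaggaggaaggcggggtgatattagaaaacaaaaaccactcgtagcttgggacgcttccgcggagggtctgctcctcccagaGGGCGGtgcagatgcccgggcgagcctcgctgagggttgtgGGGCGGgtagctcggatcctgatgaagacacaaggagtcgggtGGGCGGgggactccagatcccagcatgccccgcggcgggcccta
The window of Dicer1 held 2 CCAAT matches, that of Ago3 2 GC boxes and 1 Ets motif, and that of Tarbp2 3 GC boxes. Of 33469 windows of this length, 34.0% held CCAAT, 30.5% the GC box, 7.27% the Ets motif, 5.59% the E-box, 1.59% the cAMP response element, 0.762% the NRF1 site and 12.9% the TATA box. Of the other members with a window, Drosha held 3 CCAAT matches and 1 Ets motif, Dgcr8 4 CCAAT matches, 1 GC box and 1 E-box, Xpo5 1 GC box and 2 NRF1 matches, Ago1 1 CCAAT match and 2 GC boxes, and Tnrc6a 2 Ets motifs. Of these windows, those of Ago1 and Tnrc6a lie wholly inside the gene's span, and 93 bases of Drosha's and 79 of Dgcr8's do. The table had an entry for 7 of 10 members, and Ago2, Tnrc6b and Tnrc6c were without one. GC content was 63.6%, 72.0% and 65.2% for Dicer1, Ago3 and Tarbp2, against a median of 51.2% over the 33469 windows. The shares of windows with each motif were not matched for GC content. No searched motif occurred in all 3 windows, and a match is a description of the letters.

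In the GRCr8 annotation, the span of Dicer1 runs over chr6:129392298-129457252 and that of Ago3 over chr5:143913957-143998746. Another annotated gene overlaps 6 of 10 members, Ago1, Ago2 and Ago3 among them, and none overlaps Dicer1. These overlaps are of whole spans, and exons were not compared. Whether the counting used the strand, and which annotation it used, is not given in the sources used here. A long non-coding RNA overlaps the span of Ago3, and whether its reads entered the count of Ago3 was not tested.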

How the data were processed

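The mPFC RNA of 20 rats (10 per group) was sequenced, with groups taken from the sample labels. Per the sample records, 4 µg of total RNA went into each poly(A) library. Per the study's methods, reads were trimmed with TrimGalore, aligned to rn6 (Rnor_6.0) with HISAT2 and counted with HTSeq-count. The authors deposited raw counts per gene. Versions, gene annotation and strand setting are not given in the sources used here. The 5 unnamed rows at the end of the matrix (25.5% to 29.0% of all reads) and their identity were not used, 27 symbols have the form of a date and were kept, and 0 pairs of libraries were identical.

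Genes reaching 5 reads in 10 or more libraries were tested with edgeR 4.0.16 in R 4.3.3 (TMM, quasi-likelihood F test, Benjamini-Hochberg, threshold 0.05, no covariate). Alternatives were DESeq2 1.42.0, limma 3.58.1 voom, RLE or total-count scaling, other filters, a replicate block, 1 surrogate variable (sva 3.50.0), offsets for gene span in 50 bins (span on GRCr8, known for 89.9% of genes tested), reads drawn down to 11098076, and each rat left out. The striatal covariate was added after seeing the data. P-values rest on the spread between rats.

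The members and all lists were chosen with earlier results of these data known. The text names the 10 members, Ago4, Tarbp2, Prkra and Ran, up to 5 called genes per partner list (1 of them is not reported here), and the 5 genes with the highest mean correlation to the members, and microRNA rows, which were chosen after their values were seen.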

Additional observations from a re-analysis of the deposited data

Results flagged for a closer look

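In 68 sets of 10 rats, the values farthest from the rest were compared with Dixon's 95% critical value for 10 samples (0.466), which about 1 in 20 sets exceed by chance. Xpo5 in LSD replicate 10 was at 55.4 RPM, with the nearest LSD value at 70.6. Cnot1 in the same rat was at 104.4 RPM, with the nearest at 121.6, and this rat held the lowest LSD value of 5 of the 10 members. The summed microglial markers reached 375.9 RPM in LSD replicate 3 (nearest 271.1) and 313.4 in saline replicate 4 (nearest 270.9). The striatal markers reached 434.7 RPM in LSD replicate 9 (nearest 283.8). The choroid plexus markers reached 12.6 RPM in saline replicate 10 (nearest 5.66). The part of these rats in the results was not tested beyond leaving each out in turn.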

How the results depend on the processing

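The count of members called higher was 2, and became 4 with total counts (Dicer1, Ago3, Drosha and Tnrc6b), 3 with the replicate block, and 1 with span offsets, centred span offsets or the striatal covariate. The share of all genes called higher was 6.48%, and 9.06%, 8.16%, 3.99%, 3.38% and 5.43% in these settings, in that order. The count of members stayed at 2 in the other 9 settings. The number of all genes called higher was 663 with span offsets and 562 with centred span offsets, and of those called lower 858 with total counts, 836 with no filter and 814 with span offsets, against 1076 and 1418. Lower calls made up 56.9% of all calls, and 36.3% with total counts, 46.5% with no filter and 66.4% with centred span offsets. The cause was not tested.

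Partners called higher numbered 9, and 15 with 1 surrogate variable, 5 with span offsets and 5 with centred span offsets. The share of all genes called higher was 6.48%, and 9.53%, 3.99% and 3.38% in these settings, in that order. Partners called lower numbered 2, and 4 with DESeq2, 6 with 1 surrogate variable, 5 with centred span offsets, 4 with the replicate block and centred span offsets, and 5 with the striatal covariate. The share of all genes called lower was 8.54%, and 10.3%, 12.1%, 6.7%, 7.87% and 7.24% in these settings, in that order.

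Leaving out 1 rat gave 663 to 1669 genes called higher and 957 to 1907 lower, 1 to 3 members higher and 0 lower, and 4 to 14 partners higher and 2 to 5 lower. Genes called higher numbered 663 without LSD replicate 8, 1669 without saline replicate 2 and 705 without saline replicate 4. Partners called higher numbered 4 without LSD replicate 7 or 8, 5 without saline replicate 1, 3, 4, 5 or 9, and 14 without saline replicate 2, where 5 were called lower.

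The correlation of deviations between rats of the 2 groups with the same number ran from -0.26 to 0.47, with a mean of 0.15 against -0.016 between different numbers. It was over 0.1 in 6 of 10 pairs, not in all, and 3 of 20 rats correlated best with their own number, so the numbers were not taken as pairs. The replicate block gave 1355 genes higher and 1606 lower, and Ago2 passed (0.32, adjusted p = 0.0416).

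Some uncalled genes changed sign. Ran was at 0.025 with total counts, 0.079 with span offsets, 0.066 with centred span offsets, and 0.081 and 0.068 with the replicate block added to each of these offsets. In that order of 4 span settings, Dgcr8 was at -0.012, -0.024, -0.013 and -0.025, Xpo5 at -0.0050, -0.017, -0.0033 and -0.016, Ago1 at -0.012, -0.024, -0.0086 and -0.021, and Tnrc6c at -0.045, -0.056, -0.040 and -0.052. Tnrc6a was at -0.0038 with centred span offsets and at -4.43e-05 with the block and centred span offsets. With the striatal covariate Xpo5 was at -0.031, Ago1 at -0.017 and Tnrc6c at -0.032. With 1 rat left out, Dgcr8 ranged from -0.0090 to 0.021, Xpo5 from -0.011 to 0.066, Ago1 from -0.0051 to 0.054, Tnrc6c from -0.017 to 0.056 and Ran from -0.040 to 0.0083. Leaving out saline replicate 9 turned the sign of each of these 5 genes.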
